A study of Mus musculus with 6 samples.

Results

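The genes of glucose uptake, glycolysis and glycogen metabolism were followed in brown fat of cold-exposed mice that did or did not lack adenylyl cyclase 3 (Adcy3) in adipocytes. The group was defined by 35 gene symbols: transporters of glucose and lactate, the glycolytic enzymes, the enzymes that set fructose 2,6-bisphosphate, and the machinery of glycogen synthesis and breakdown, with muscle-specific isoforms left out of the list. All 35 symbols were found, as 36 entries of the 54385 in the count table, because Aldoa has 2 entries. All 36 passed the filter on low counts, as did 14767 entries in all. The members took 2.99% ± 0.145 (SD, n = 3) of all counts in controls and 3.32% ± 0.271 (SD, n = 3) in knockouts.

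The samples were interscapular brown adipose tissue, a thermogenic depot of the upper back, from C57BL/6N mice kept on chow for 20 weeks and held at 5 °C for the last 24 hours. The 3 controls carried floxed Adcy3 alleles without Cre (genotype Adcy3-FL/FL, Adipoq-wt/wt), and the 3 knockouts carried the same floxed alleles with 1 Adipoq-driven Cre allele (Adcy3-FL/FL, Adipoq-wt/cre). All 6 samples were of cold-exposed mice, so no value here compares cold with warm. Adipoq-Cre acts in adipocytes, and blood vessel, nerve, immune and stromal cells of the tissue keep Adcy3. The sample labels were followed where the series text differed from them (it names another depot and more replicates per group). The labels number the replicates but do not say that each came from a separate animal, so p-values measure the spread between these libraries.

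Glycolysis splits glucose into pyruvate in the cytosol. Its flux is set mainly at uptake, at hexokinase and at phosphofructokinase, and the phosphofructokinase step is switched on by fructose 2,6-bisphosphate. Cold-activated brown fat takes up much glucose through GLUT4 (Slc2a4) and GLUT1 (Slc2a1), burns part of it, releases lactate, uses part for the glycerol backbone of triglycerides and stores part as glycogen. Adcy3 makes cyclic AMP downstream of β-adrenergic receptors, the signal by which cold activates brown fat.

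Adcy3 itself read 135, 169 and 158 CPM in controls and 21.9, 30.3 and 24.1 CPM in knockouts, where CPM is the usual rate of counts over the library total after TMM scaling. That was a log2 fold change of -2.60 ± 0.17 (SE, edgeR adjusted p = 0.00146), and the groups did not overlap. The labels do not say which exons are floxed, so transcripts of the remaining exons may be among these counts. The libraries held between 13956786 and 17538044 estimated counts. Knockout library 1 stood apart from the other knockouts in 2 ways that bear on the members. Summed over 20 skeletal muscle markers, muscle transcripts were 2.02%, 1.83% and 1.56% of counts in controls and 0.871%, 0.0660% and 0.00904% in knockouts, and no knockout overlapped the controls (exact permutation p = 0.1, two-sided, the smallest that 3 against 3 allows). Of these markers, 18 of 20 were lower in every knockout than in every control, against 10.8% of all genes, and none was at 0 counts in any library. In the same library, transcript length and GC content together accounted for 18.4% of the variance over genes of its difference from the mean of the libraries, against 1.12% to 4.27% in the other 5. Values without this library are therefore given for some of the members, and log2 fold changes not marked so are of all 6 libraries. In bulk tissue, fewer cells of a type and less RNA per cell cannot be told apart.

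With all 6 libraries, 0 of the 36 member entries passed the test between genotypes (edgeR quasi-likelihood test, Benjamini-Hochberg adjusted p under 0.05 over all genes, the meaning of "called" throughout), where the background was 0.0271% of genes called higher and 0.0339% called lower in knockouts. At an unadjusted p under 0.05, 6 members were higher, against 2.87% of all genes, and 3 were lower, against 7.6%. DESeq2 and limma-voom also called 0 members, and 10 and 11 members had an unadjusted p under 0.05 with them, against 4.99% of the 31851 genes with a DESeq2 p, low counts included, and 12.1% of the 14767 genes in limma-voom. Every knockout lay above every control for 12 members, against 7.63% of all genes, and below every control for 5 members, against 10.8%. A positive log2 fold change was found for 24 of 36 members (66.7%) and for 51.7% of all genes. The median log2 fold change was 0.20 over the members and 0.011 over all genes. By library, the members' median log2 difference from the control mean was 0.13, 0.11 and 0.17 in knockouts 1, 2 and 3. Brown adipocyte markers, beside these, were 0.833%, 0.918% and 0.924% of counts in controls and 1.08%, 1.01% and 1.07% in knockouts; their part in the members' values was not tested.

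**Figure D1:**
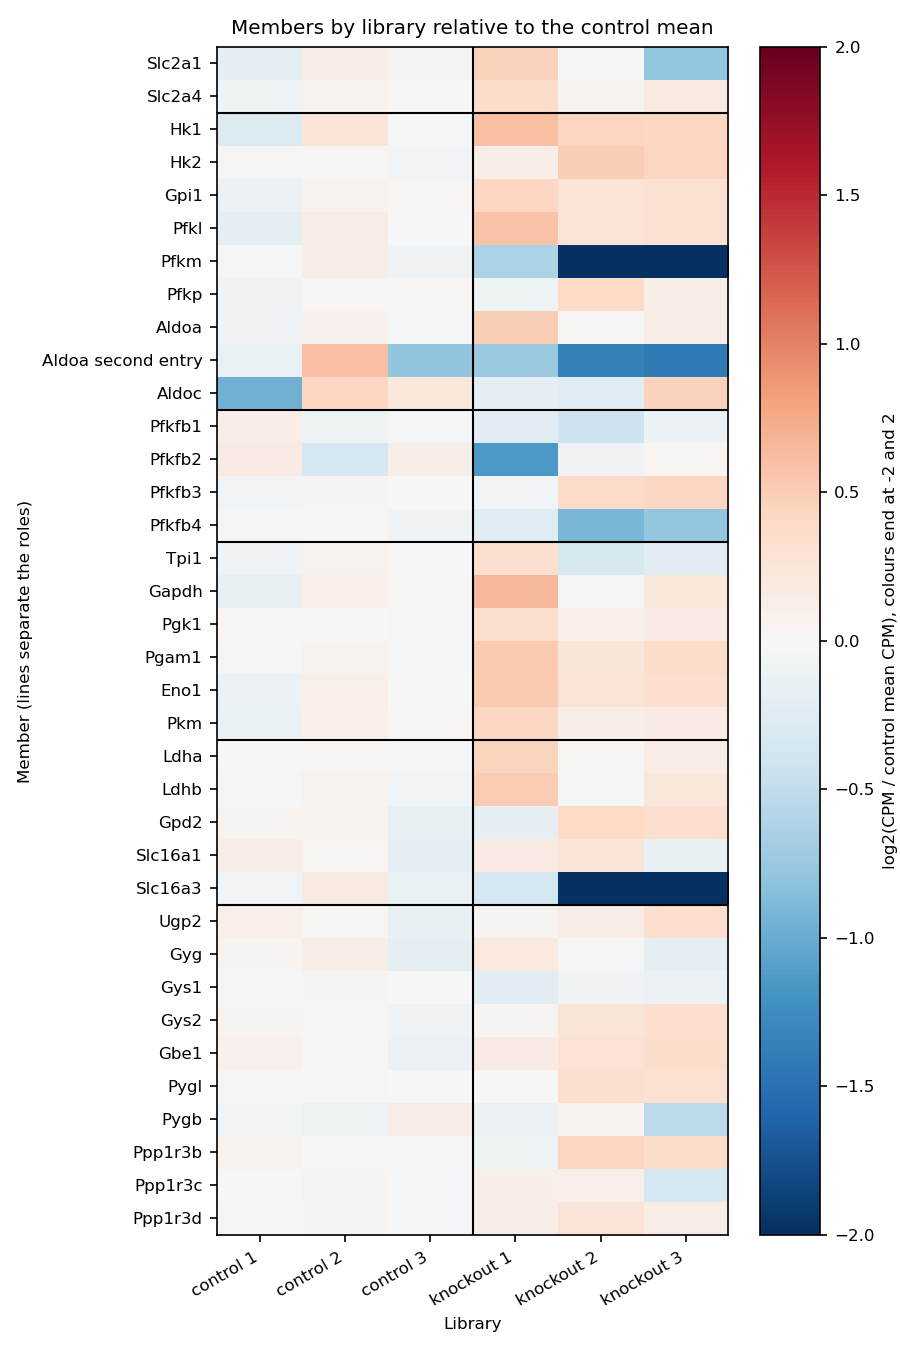
Each member's level in each library as log2 of its CPM over the control mean (colour scale, ends at -2 and 2), with members in rows ordered by role and the 3 control and 3 knockout libraries in columns. Most members were faintly red in the knockouts, while Pfkm and Slc16a3 were deep blue in knockouts 2 and 3 and pale blue in knockout 1.

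Without knockout library 1, 4 members were called. Hexokinase 2 (Hk2) rose, with a log2 fold change of 0.46 ± 0.10 (SE, edgeR adjusted p = 0.0251), against a background of 0.296% of genes called higher. Muscle-type phosphofructokinase (Pfkm) fell, at -2.35 ± 0.13 (SE, edgeR adjusted p = 8.77e-06), as did the lactate exporter MCT4 (Slc16a3), at -3.36 ± 0.27 (SE, edgeR adjusted p = 4.08e-05), and Pfkfb4, at -0.84 ± 0.18 (SE, edgeR adjusted p = 0.0263), against a background of 5.35% of genes called lower. With 3 of 36 members called lower and 1 of 36 called higher, these counts are too small for a reading of the group as a whole.

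The start regions of these 4 genes are shown because their counts moved in that comparison, and that of Ldha because it held the most motif matches among the members, chosen after the matches were seen. Each run is the 250 bases before an annotated RefSeq start on GRCm38.p6, 5′ to 3′ on the gene's strand. Capitals mark matches on either strand to ACGTG, the core shared by the hypoxia response element and the E-box (CACGTG, which contains it), and to TGACG, the first bases of the cyclic AMP response element (TGACGTCA, which contains it). Hk2 is at chr6:82774455-82774704, minus strand, directly before the GENCODE gene. Pfkm is at chr15:98092339-98092588, plus strand, directly before the GENCODE gene and the most upstream of its 4 windows. Slc16a3 is at chr11:120948817-120949066, plus strand, inside the span of the GENCODE gene, downstream of its annotated start. Pfkfb4 is at chr9:108991652-108991901, plus strand, and overlaps the first bases of the GENCODE gene. Ldha is at chr7:46845554-46845803, plus strand, inside the span of the GENCODE gene.
Hk2: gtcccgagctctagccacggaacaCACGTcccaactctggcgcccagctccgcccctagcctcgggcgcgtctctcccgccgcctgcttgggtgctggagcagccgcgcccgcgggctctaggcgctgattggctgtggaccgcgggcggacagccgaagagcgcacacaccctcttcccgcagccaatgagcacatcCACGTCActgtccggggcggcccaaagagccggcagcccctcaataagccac
Pfkm: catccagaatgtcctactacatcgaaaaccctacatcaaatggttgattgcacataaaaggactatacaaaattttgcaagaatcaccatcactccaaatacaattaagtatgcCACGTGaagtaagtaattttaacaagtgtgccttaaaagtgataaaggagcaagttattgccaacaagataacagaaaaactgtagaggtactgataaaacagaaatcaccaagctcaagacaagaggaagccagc
Slc16a3: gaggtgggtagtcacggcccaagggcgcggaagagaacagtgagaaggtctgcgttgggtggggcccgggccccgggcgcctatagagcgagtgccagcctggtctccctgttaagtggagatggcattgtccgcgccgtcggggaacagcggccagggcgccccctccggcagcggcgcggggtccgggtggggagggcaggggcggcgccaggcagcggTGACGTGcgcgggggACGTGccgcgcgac
Pfkfb4: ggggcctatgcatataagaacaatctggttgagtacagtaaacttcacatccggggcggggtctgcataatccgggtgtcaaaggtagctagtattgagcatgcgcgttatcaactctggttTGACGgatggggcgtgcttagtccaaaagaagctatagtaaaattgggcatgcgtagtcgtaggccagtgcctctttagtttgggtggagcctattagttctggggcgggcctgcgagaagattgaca
Ldha: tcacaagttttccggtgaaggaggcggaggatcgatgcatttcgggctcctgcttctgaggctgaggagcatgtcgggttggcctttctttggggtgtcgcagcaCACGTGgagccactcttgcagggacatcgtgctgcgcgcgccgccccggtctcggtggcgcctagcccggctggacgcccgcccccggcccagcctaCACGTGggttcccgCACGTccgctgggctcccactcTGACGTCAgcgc

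Of the 35 members 32 had a start region in the RefSeq table, in 51 windows; Slc2a4, Gys2 and Ppp1r3b had no entry. ACGTG was found in 43.14% of the members' windows and in 16.57% of all 32851 windows, in 18 of the 32 genes. CACGTG was found in 13.73% and 6.02%, respectively. TGACG was in 21.57% of the members' windows and 17.77% of all, and the full TGACGTCA in 1.96% and 1.55%. In the runs above, Ldha held 2 copies of CACGTG and 1 of TGACGTCA, Pfkm held 1 copy of CACGTG, and Hk2 and Slc16a3 each held 2 matches to ACGTG and 1 to TGACG. The other windows of Pfkm and Ldha held no CACGTG. Windows of 1 gene can overlap, and a match describes letters only.

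Levels can be set beside each other only per transcript length, as CPM per kilobase of the longest coding transcript. Aldolase, enzymes of the lower pathway and lactate dehydrogenase were highest. Aldoa stood at 3477 ± 198 CPM per kilobase in controls (SD, n = 3), Eno1 at 1860.0 ± 149, Gapdh at 1797 ± 164, Pkm at 1396 ± 115 and Ldha at 996 ± 20.2. Eno1 and Gapdh, neighbours in that order, differed by less than their spread. With the union of exons as length, these 5 genes were again the highest 5, with Pkm above Gapdh. At the other end were Slc2a1 at 2.51 ± 0.274, Pfkfb4 at 2.43 ± 0.112, Pfkfb2 at 2.27 ± 0.417 and Aldoc at 0.248 ± 0.107 CPM per kilobase. A floor of 3 counts was 0.172 to 0.203 CPM, so Aldoc, at 0.353 to 0.950 CPM, was a few counts above it.

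**Figure D2:**
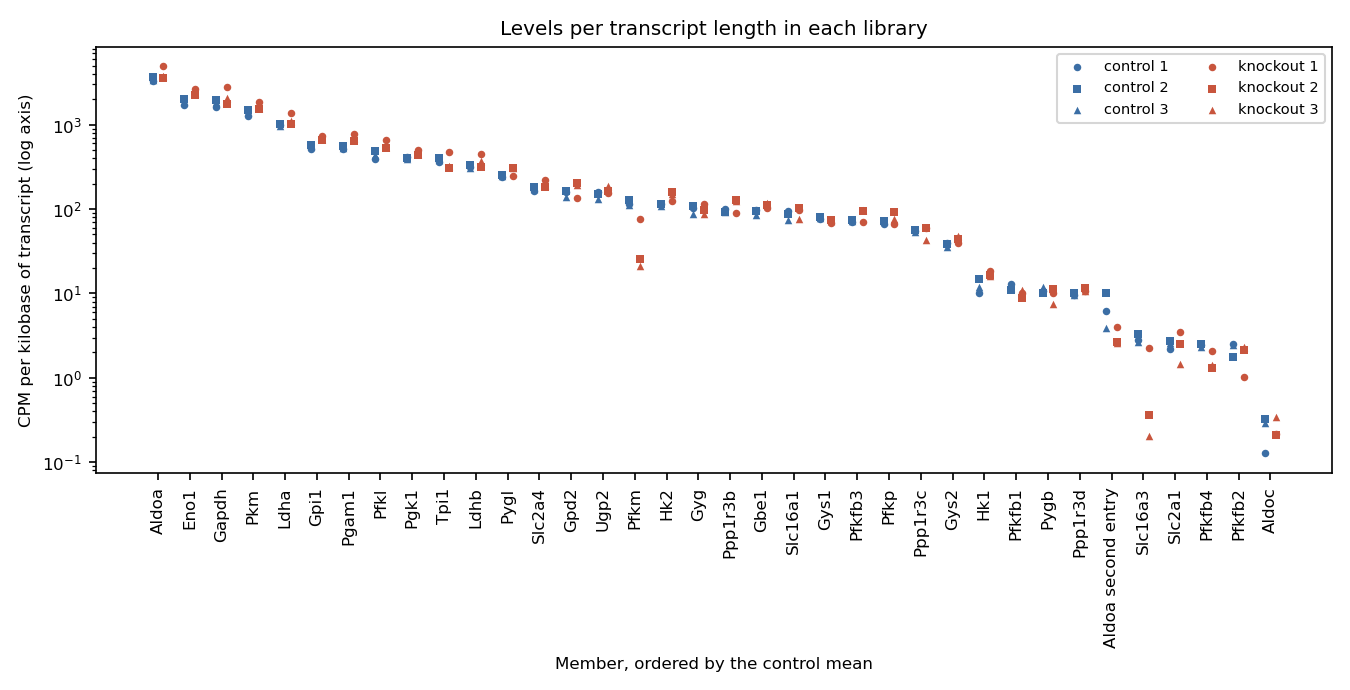
Level of each member per transcript length (vertical axis, CPM per kilobase, log scale) in each of the 6 libraries, with members ordered by the control mean from left to right. Controls are blue and knockouts red, and the points of most genes lie close together at this scale. Those of Slc2a1, Pfkfb2, Aldoc and the second Aldoa entry are more spread. For Pfkm and Slc16a3 the knockout 2 and 3 points lie far below the controls.

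Of the transcripts of the 2 member glucose transporters, nearly all were those of GLUT4. Slc2a4 took 98.6% ± 0.0870 (SD, n = 3) in controls and 98.8% ± 0.414 (SD, n = 3) in knockouts of the summed per-length level of the pair, and Slc2a1 the rest. Slc2a4, the insulin-responsive transporter, read 412, 456 and 439.7 CPM in controls and 560.3, 459 and 492 CPM in knockouts. All knockouts were above all controls, although knockout 2 exceeded the highest control by little, with a log2 fold change of 0.21 ± 0.13 (SE, edgeR adjusted p = 0.617). Slc2a1, the basal transporter, read 7.18, 8.88 and 8.51 CPM in controls and 11.3, 8.21 and 4.81 CPM in knockouts, with a log2 fold change of -0.018 ± 0.29 (SE, edgeR adjusted p = 0.99). Its knockouts ran on both sides of the controls, with knockout 1 highest and knockout 3 lowest of the 6 libraries.

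Hexokinase traps glucose in the cell as glucose 6-phosphate. Hk2, the insulin-inducible form (chromosome 6, 82725025 to 82774454, minus strand), was the main form. It took 90.2% ± 1.65 (SD, n = 3) in controls and 89.3% ± 2.07 (SD, n = 3) in knockouts of the 2 genes per length. It read 633, 631 and 601 CPM in controls and 679.5, 877 and 837 CPM in knockouts. Knockouts 2 and 3 were well above the controls and knockout 1 only just above them, with a log2 fold change of 0.36 ± 0.13 (SE, edgeR adjusted p = 0.396) over all 6 libraries. The value without knockout 1 is given above, and in the fit that adds the muscle share to genotype its log2 fold change was -0.084 ± 0.31 (SE, edgeR adjusted p = 0.913). That share did not overlap between the genotypes, so this fit cannot separate muscle from genotype. Hk1, the broadly expressed form, read 43.1, 62.8 and 50.8 CPM in controls and 79.5, 70.7 and 69.4 CPM in knockouts, also with no overlap, at 0.49 ± 0.16 (SE, edgeR adjusted p = 0.333) on the log2 scale. Gpi1, which turns glucose 6-phosphate into fructose 6-phosphate, read 1471, 1678 and 1628 CPM in controls and 2123, 1909 and 1960.5 CPM in knockouts. Here all knockouts were above all controls and knockout 1 was highest, with a log2 fold change of 0.33 ± 0.11 (SE, edgeR adjusted p = 0.339).

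Phosphofructokinase, the committing step, is assembled from liver-type (Pfkl), muscle-type (Pfkm) and platelet-type (Pfkp) subunits, and here the shares of Pfkm and Pfkl did not overlap between genotypes. Pfkm (chromosome 15, 98092589 to 98132451, plus strand) read 332, 369 and 324 CPM in controls and 221, 72.8 and 61.6 CPM in knockouts. Every knockout was below every control, but knockout 1 lay between the controls and the 2 other knockouts. The log2 fold change was -1.53 ± 0.45 (SE, edgeR adjusted p = 0.289) with all libraries, and Pfkm was called without knockout 1 (above) and with no filter on low counts at -1.52 ± 0.17 (SE, edgeR adjusted p = 4.75e-16), where 2.45% of 31870 genes were called lower. With no filter the SE was also 0.17 for Slc2a4, Gyg and Gys1, against 0.13, 0.15 and 0.11 with the filter. The p of Pfkm with no filter therefore does not measure its spread between these libraries. Pfkl read 1455, 1831 and 1647 CPM in controls and 2433, 1957 and 2038 CPM in knockouts, with a log2 fold change of 0.38 ± 0.14 (SE, edgeR adjusted p = 0.38) and no overlap. Pfkp read 278, 299 and 296 CPM in controls and 274, 384 and 317 CPM in knockouts, with a log2 fold change of 0.16 ± 0.15 (SE, edgeR adjusted p = 0.769), and knockout 1 was below all controls. Per length, Pfkm made up 18.9% ± 1.11 (SD, n = 3) in controls and 5.64% ± 3.50 (SD, n = 3) in knockouts of the 3 subunits' transcripts. Pfkl made up 69.9% ± 1.55 (SD, n = 3) in controls and 82.8% ± 1.73 (SD, n = 3) in knockouts. The log2 ratio of Pfkl to Pfkm was 2.26 ± 0.11 in controls against 4.42 ± 0.84 in knockouts (SD, n = 3, exact permutation p = 0.1, two-sided, the smallest possible, adjusted p = 0.2 over the 10 ratios).

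Pfkm is also the main form of skeletal muscle, and its order across libraries was that of the muscle markers within the knockouts: knockout 1 above knockout 2 above knockout 3. In knockout 3, muscle markers were at 0.00904% of counts and Pfkm still read 61.6 CPM. The true muscle isoforms, which are no members, showed the same layout: Pygm, muscle glycogen phosphorylase, read 557, 528 and 434 CPM in controls and 243, 20.7 and 3.56 CPM in knockouts. Pgam2, muscle phosphoglycerate mutase, read 145, 129.9 and 107 CPM in controls and 87.7, 4.30 and 0.653 CPM in knockouts, and Eno3, muscle enolase, read 414, 370.1 and 322 CPM in controls and 243, 17 and 6.53 CPM in knockouts. Of 7 such isoforms 6 were lower in every knockout than in every control, against 10.8% of all genes, and 0 were called. The exception was Fbp2, muscle fructose-bisphosphatase, at 33.9, 37.1 and 33.4 CPM in controls and 39.8, 38.0 and 54.8 CPM in knockouts. With the muscle share as a covariate, the log2 fold change of Pfkm was 0.77 ± 0.47 (SE, edgeR adjusted p = 0.454) and that of Slc16a3 was 1.96 ± 0.81 (SE, edgeR adjusted p = 0.306), opposite in sign to the values without it. The muscle share did not overlap between the genotypes, so the parts of muscle and genotype cannot be told apart, in these 2 genes or elsewhere in that fit.

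**Figure D3:**
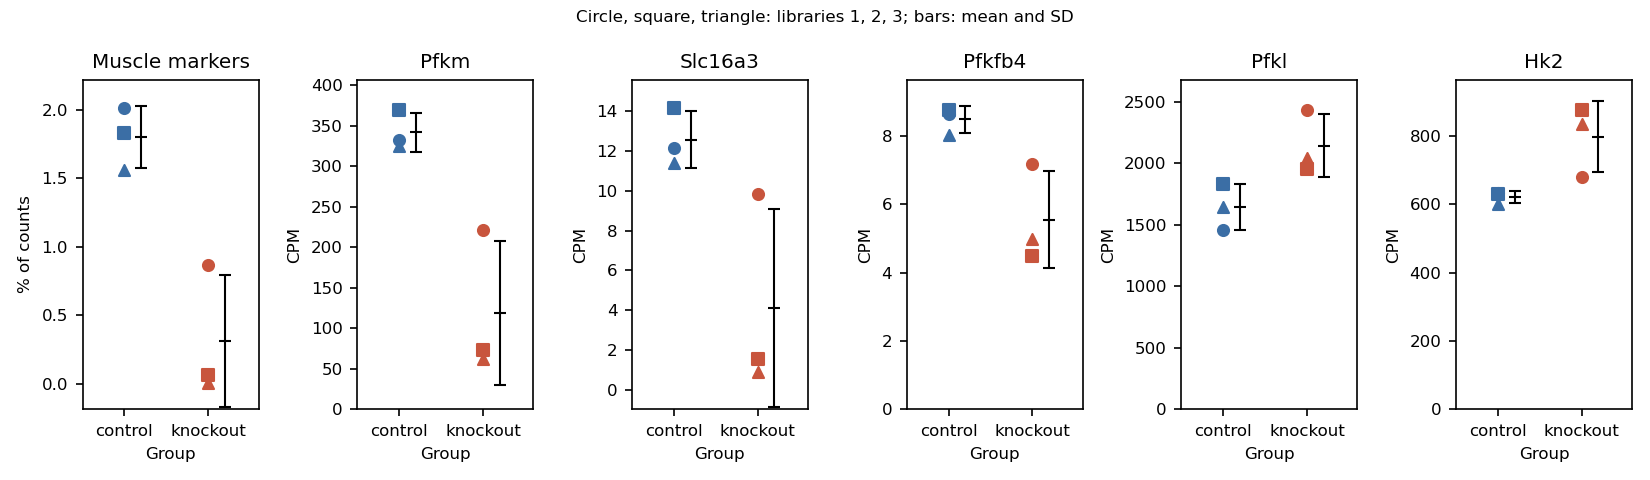
Summed share of counts from 20 skeletal muscle markers (first panel, % of counts) and CPM of Pfkm, Slc16a3, Pfkfb4, Pfkl and Hk2 by library, with controls blue, knockouts red, symbols for library number and bars for the mean and SD of 3 libraries. In the muscle, Pfkm, Slc16a3 and Pfkfb4 panels knockout 1 (circle) lies between the controls and knockouts 2 and 3; in the Pfkl panel it is highest and in the Hk2 panel it is the lowest knockout.

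Aldolase, which splits fructose 1,6-bisphosphate, was nearly all Aldoa (chromosome 7, 126795234 to 126800751, minus strand). It read 5128, 5726 and 5303 CPM in controls and 7613, 5484 and 5893 CPM in knockouts, with a log2 fold change of 0.23 ± 0.13 (SE, edgeR adjusted p = 0.597). Knockout 1 was far above the controls, knockout 3 just above them and knockout 2 among them. The second Aldoa entry, a separate gene model just upstream on the same strand (chromosome 7, 126800790 to 126809108, minus strand), was 4.99 ± 2.37 CPM in controls against 2.28 ± 0.607 in knockouts (SD, n = 3), and the groups overlapped. Its log2 fold change was -1.14 ± 0.39 (SE, edgeR adjusted p = 0.356), and it was called with no filter on low counts at -1.13 ± 0.33 (SE, edgeR adjusted p = 0.0215). The limit given for that fit with Pfkm holds here too. Aldoc, the brain form, was barely detected and read 0.353, 0.917 and 0.804 CPM in controls and 0.609, 0.587 and 0.950 CPM in knockouts.

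The PFKFB enzymes make and break fructose 2,6-bisphosphate, the activator of phosphofructokinase, and 3 of the 4 had lower values in knockouts. Pfkfb3, the form with the strongest kinase activity, was the main one, at 81.4% ± 1.79 (SD, n = 3) in controls and 86.5% ± 2.20 (SD, n = 3) in knockouts of the 4 genes per length. It read 333, 358 and 347 CPM in controls and 334, 453 and 462 CPM in knockouts, with a log2 fold change of 0.27 ± 0.15 (SE, edgeR adjusted p = 0.595). Knockouts 2 and 3 were above all controls, and knockout 1 was among the controls. Pfkfb1 read 24.1, 20.5 and 21.6 CPM in controls and 18.8, 16.6 and 20.4 CPM in knockouts, below the controls in each knockout but only just so in knockout 3, with a log2 fold change of -0.24 ± 0.14 (SE, edgeR adjusted p = 0.594). Pfkfb4 (chromosome 9, 108991778 to 109032228, plus strand) read 8.66, 8.77 and 8.04 CPM in controls and 7.18, 4.50 and 4.99 CPM in knockouts, with no overlap and a log2 fold change of -0.61 ± 0.21 (SE, edgeR adjusted p = 0.372) over all libraries. Knockout 1 lay between the controls and the other knockouts, as it did for the muscle markers, but knockout 3 was above knockout 2, unlike them. With the muscle share in the fit the log2 fold change of Pfkfb4 was 0.28 ± 0.44 (SE, edgeR adjusted p = 0.781), and muscle and genotype cannot be told apart there. Pfkfb2 was low and read 11.2, 7.91 and 10.9 CPM in controls and 4.54, 9.52 and 10.3 CPM in knockouts, with a log2 fold change of -0.30 ± 0.31 (SE, edgeR adjusted p = 0.787). The log2 ratio of Pfkfb3 to Pfkfb1 was 3.98 ± 0.17 in controls against 4.47 ± 0.31 in knockouts (SD, n = 3, exact permutation p = 0.1, two-sided, adjusted p = 0.2).

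In the lower pathway, from triose phosphate to pyruvate, 5 of 6 enzymes had positive log2 fold changes, where 51.7% of all genes did. In 4 of 6 every knockout was above every control, against 7.63% of all genes. Enolase 1 (Eno1), which makes phosphoenolpyruvate, read 3461, 4064 and 3785 CPM in controls and 5393, 4552 and 4771 CPM in knockouts. All knockouts were above all controls, with a log2 fold change of 0.38 ± 0.11 (SE, edgeR adjusted p = 0.288); DESeq2 and limma-voom gave adjusted p = 0.125 and 0.173. Phosphoglycerate mutase 1 (Pgam1) read 925, 995 and 936 CPM in controls and 1362, 1124 and 1225 CPM in knockouts, likewise apart, with a log2 fold change of 0.38 ± 0.12 (SE, edgeR adjusted p = 0.312). Phosphoglycerate kinase 1 (Pgk1), which makes the first ATP of the pathway, read 752, 733 and 720.4 CPM in controls and 916, 791 and 825 CPM in knockouts, with a log2 fold change of 0.20 ± 0.11 (SE, edgeR adjusted p = 0.594). Pyruvate kinase (Pkm) read 3095, 3649.6 and 3438 CPM in controls and 4535, 3712 and 3811 CPM in knockouts, with a log2 fold change of 0.24 ± 0.12 (SE, edgeR adjusted p = 0.526), and knockout 2 exceeded the highest control by little. Triose phosphate isomerase (Tpi1) was the exception, at 586, 640.5 and 612 CPM in controls and 764, 492 and 525 CPM in knockouts: knockout 1 was above all controls and the others below all of them, with a log2 fold change of -0.047 ± 0.18 (SE, edgeR adjusted p = 0.959).

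Gapdh, which oxidises glyceraldehyde 3-phosphate and is often used as a reference gene, read 2294, 2749 and 2613 CPM in controls and 4007, 2507 and 2966 CPM in knockouts. Knockouts 1 and 3 were above all controls and knockout 2 lay among them, with a log2 fold change of 0.31 ± 0.18 (SE, edgeR adjusted p = 0.594). Its count is uncertain: the processed pseudogene Gm7336 (chromosome 7, 51746647 to 51747878, plus strand) is 99.8% identical to it over 1232 bases and was listed with 113144 estimated counts over the 6 libraries, 41.4% of Gapdh's own. Gm7336 read 1152, 1243 and 1220.2 CPM in controls and 1201, 1148 and 1088 CPM in knockouts, a far smaller range than Gapdh's. The sum of both read 3446, 3992 and 3833 CPM in controls and 5208, 3655 and 4054 CPM in knockouts, a log2 fold change of 0.20 ± 0.15 (SE, edgeR adjusted p = 0.688). Gm7336 was 32.1% ± 1.18 (SD, n = 3) of the sum in controls and 27.1% ± 4.18 in knockouts. Pfkp shares 748 identical bases on the opposite strand with its neighbour Pitrm1, whose 4208 counts were 14.2% of Pfkp's. The use of strand in counting being not given in the sources used here, reads of that overlap may sit with either gene. All 45 near-identical entries of Gapdh held 114819 counts. Those of the other members held few, 359 for Eno1 and at most 24 for each of the rest.

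Lactate dehydrogenase turns pyruvate into lactate and back, and its isoform makeup overlapped between the genotypes. Ldha, the form favouring lactate, was 75.9% ± 0.502 (SD, n = 3) in controls and 75.4% ± 0.687 (SD, n = 3) in knockouts of the pair per length. Ldha read 1822, 1837 and 1767 CPM in controls and 2467, 1845 and 1997 CPM in knockouts, with a log2 fold change of 0.22 ± 0.13 (SE, edgeR adjusted p = 0.61). All knockouts were above all controls, knockout 2 by little. Ldhb read 406, 431 and 398 CPM in controls and 583, 416 and 484 CPM in knockouts, with overlap and a log2 fold change of 0.26 ± 0.15 (SE, edgeR adjusted p = 0.591). The mitochondrial glycerol 3-phosphate dehydrogenase Gpd2, which passes cytosolic NADH electrons to the respiratory chain, read 925, 937 and 805 CPM in controls and 775, 1175 and 1119.6 CPM in knockouts, with a log2 fold change of 0.20 ± 0.17 (SE, edgeR adjusted p = 0.737). Knockout 1 was below all controls and knockouts 2 and 3 above all of them. Of the lactate transporters, MCT1 (Slc16a1) overlapped between groups, at 418, 391 and 329.7 CPM in controls and 427, 456 and 341 CPM in knockouts, with a log2 fold change of 0.10 ± 0.16 (SE, edgeR adjusted p = 0.87). MCT4 (Slc16a3, chromosome 11, 120948480 to 120960868, plus strand), the low-affinity exporter of glycolytic cells, read 12.1, 14.2 and 11.4 CPM in controls and 9.82, 1.56 and 0.891 CPM in knockouts, with a log2 fold change of -1.63 ± 0.72 (SE, edgeR adjusted p = 0.487) over all libraries. Every knockout was below every control, but knockout 1 by little and knockouts 2 and 3 by a wide margin. The log2 ratio of Slc16a1 to Slc16a3 was 4.92 ± 0.17 in controls against 7.40 ± 1.71 in knockouts (SD, n = 3, exact permutation p = 0.1, two-sided, adjusted p = 0.2). MCT4 is a transcript of fast muscle too, and its values followed the muscle markers in the same way as those of Pfkm.

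The 10 glycogen genes took 0.275% ± 0.00304 (SD, n = 3) of counts in controls and 0.287% ± 0.0264 in knockouts, and 6 of 10 had positive log2 fold changes. Ugp2, which makes the UDP-glucose that glycogen is built from, read 429.8, 408 and 358 CPM in controls and 415, 441 and 503 CPM in knockouts, with a log2 fold change of 0.19 ± 0.13 (SE, edgeR adjusted p = 0.68). Glycogenin (Gyg), the primer of new chains, read 201, 209.7 and 169 CPM in controls and 221, 188 and 169 CPM in knockouts, with a log2 fold change of -0.0066 ± 0.15 (SE, edgeR adjusted p = 0.992) and full overlap. Of the 2 glycogen synthases, Gys1, the muscle and general form, read 277, 296 and 285 CPM in controls and 248, 271 and 263 CPM in knockouts, below the controls in each knockout, with a log2 fold change of -0.13 ± 0.11 (SE, edgeR adjusted p = 0.739). The muscle markers were lower in the knockouts too, and with their share in the fit the log2 fold change of Gys1 was -0.30 ± 0.28 (SE, edgeR adjusted p = 0.613). Muscle and genotype cannot be told apart in that fit. Gys2, the liver form, read 105, 102 and 95.5 CPM in controls and 104, 119 and 127 CPM in knockouts, with a log2 fold change of 0.21 ± 0.12 (SE, edgeR adjusted p = 0.597), and knockout 1 was among the controls. Per length, Gys1 was 67.2% ± 1.41 (SD, n = 3) in controls and 61.8% ± 1.70 (SD, n = 3) in knockouts of the pair. The log2 ratio of Gys2 to Gys1 was -1.51 ± 0.092 and -1.16 ± 0.10 (SD, n = 3, exact permutation p = 0.1, two-sided, adjusted p = 0.2), without overlap. The branching enzyme Gbe1 read 322, 310.3 and 282 CPM in controls and 341, 372 and 388 CPM in knockouts, above the controls in each knockout, with a log2 fold change of 0.27 ± 0.12 (SE, edgeR adjusted p = 0.5).

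Breakdown of glycogen runs through phosphorylase. Pygl, the liver form, was 95.8% ± 0.360 (SD, n = 3) in controls and 96.7% ± 0.772 (SD, n = 3) in knockouts of the 2 member phosphorylases per length. Pygl read 722, 750.4 and 741 CPM in controls and 745, 920.3 and 914 CPM in knockouts, with a log2 fold change of 0.22 ± 0.13 (SE, edgeR adjusted p = 0.591); knockout 1 was among the controls. Pygb, the brain form, read 41.3, 39.9 and 47.0 CPM in controls and 39.3, 44.7 and 29.6 CPM in knockouts, with a log2 fold change of -0.17 ± 0.17 (SE, edgeR adjusted p = 0.772). The log2 ratio of Pygl to Pygb was 4.11 ± 0.13 in controls against 4.52 ± 0.38 in knockouts (SD, n = 3, exact permutation p = 0.1, two-sided, adjusted p = 0.2). The 3 Ppp1r3 members bring protein phosphatase 1 to glycogen, where it turns synthase on and phosphorylase off. Ppp1r3b read 443, 409 and 407 CPM in controls and 394, 563 and 539.6 CPM in knockouts, with knockout 1 below all controls and the others above all of them, and a log2 fold change of 0.25 ± 0.16 (SE, edgeR adjusted p = 0.627). Ppp1r3c read 148, 155 and 146 CPM in controls and 162, 161 and 118 CPM in knockouts, with a log2 fold change of -0.025 ± 0.15 (SE, edgeR adjusted p = 0.974). Ppp1r3d read 31.4, 33.1 and 31.6 CPM in controls and 35.0, 38.2 and 35.3 CPM in knockouts, above the controls in each knockout, with a log2 fold change of 0.17 ± 0.11 (SE, edgeR adjusted p = 0.625). Of the other 5 ratios between isoforms (Slc2a1 to Slc2a4, Hk1 to Hk2, Pfkl to Pfkp, Aldoc to Aldoa and Ldhb to Ldha), all overlapped between the genotypes.

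Within the knockouts the members split by transcript length. Among the 26 members of 100 CPM or more, the 16 that were higher in knockout 1 than in the mean of knockouts 2 and 3 had a median transcript of 1974 bases and 53.5% GC, and the 10 that were lower had a median of 3912 bases and 48.6% GC. The first set held Gapdh, Tpi1, Aldoa, Ldha, Ldhb, Pkm and Eno1, and the other Hk2, Gpd2, Pfkfb3, Ppp1r3b, Pfkp and Pygl. Spearman's rho between log2 length and the log2 difference of knockout 1 from the other knockouts was -0.77 over these 26 members and -0.55 over all 36. It was -0.46 over the 14685 tested genes with a known length and with counts in knockout 1 and in knockout 2 or 3. With GC content it was 0.56, 0.63 and 0.26. These are correlations across genes that share the same 3 libraries, given as descriptions. Without knockout 1 the log2 fold change of Gapdh was 0.10 ± 0.12 (SE, edgeR adjusted p = 0.742), that of Aldoa was 0.080 ± 0.088 (SE, edgeR adjusted p = 0.734) and that of Ldha was 0.088 ± 0.094 (SE, edgeR adjusted p = 0.725). Eno1, at 0.31 ± 0.095 (SE, edgeR adjusted p = 0.12), and Pgam1, at 0.30 ± 0.10 (SE, edgeR adjusted p = 0.151), changed less from the values with all libraries. Of the long transcripts, Pfkfb3 was at 0.40 ± 0.10 (SE, edgeR adjusted p = 0.054), Ppp1r3b at 0.39 ± 0.10 (SE, edgeR adjusted p = 0.0658) and Gpd2 at 0.37 ± 0.11 (SE, edgeR adjusted p = 0.1) without that library. With the length and GC trend of each library removed, an alternative chosen after seeing the data, 0 members were called, 20 had an unadjusted p under 0.05 in either direction, where 15.1% of all genes did, and the log2 fold change of Gapdh was 0.24 ± 0.085 (SE, edgeR adjusted p = 0.271) and that of Hk2 was 0.45 ± 0.076 (SE, edgeR adjusted p = 0.124).

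**Figure D4:**
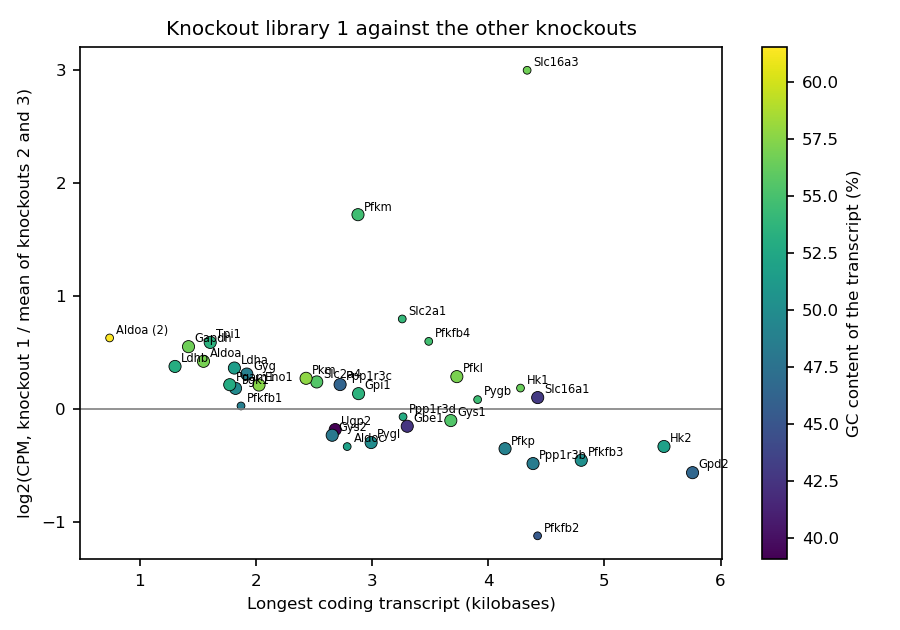
Difference of knockout library 1 from the mean of knockouts 2 and 3 (vertical axis, log2 CPM ratio) against the length of the longest coding transcript (horizontal axis, kilobases) for each member, coloured by GC content; large points are members of 100 CPM or more and Aldoa (2) is the second Aldoa entry. Short transcripts such as Gapdh and Tpi1 lie above 0 and long ones such as Hk2 and Gpd2 below it, with Pfkm and Slc16a3 far above at middle and long lengths.

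Pathway genes beyond the members were read from 6 lists, and with all 6 libraries 0 of their genes were called in either direction. In the pentose phosphate pathway, which branches off at glucose 6-phosphate and makes NADPH, 8 of 9 genes had positive log2 fold changes, and the median was 0.28. In 4 of the 9 all knockouts were above all controls, against 7.63% of all genes. Transketolase (Tkt) read 3448, 3771 and 3529 CPM in controls and 4558, 4567 and 4373 CPM in knockouts, with a log2 fold change of 0.33 ± 0.091 (SE, edgeR adjusted p = 0.27). Phosphogluconate dehydrogenase (Pgd) read 727, 740.0 and 666 CPM in controls and 1018, 918 and 900.2 CPM in knockouts, with a log2 fold change of 0.41 ± 0.12 (SE, edgeR adjusted p = 0.275), and transaldolase (Taldo1) read 720.4, 806 and 750.1 CPM in controls and 1135, 931 and 998 CPM in knockouts, with a log2 fold change of 0.43 ± 0.12 (SE, edgeR adjusted p = 0.286). The knockouts of these 3 enzymes were all above the controls, knockout 1 no more extreme than the rest for Tkt. For pyruvate entry into mitochondria and its regulation, 10 of 14 genes had positive log2 fold changes (median 0.19). The pyruvate dehydrogenase subunit Pdhb read 959, 927 and 910.2 CPM in controls and 1313, 1155 and 1213 CPM in knockouts, with a log2 fold change of 0.40 ± 0.11 (SE, edgeR adjusted p = 0.267). The pyruvate carrier subunit Mpc2 read 448, 461 and 434 CPM in controls and 739, 494 and 561 CPM in knockouts, with knockout 1 far above the others. Its log2 fold change was 0.42 ± 0.16 (SE, edgeR adjusted p = 0.433). The phosphatase Pdp1, which activates the dehydrogenase, had a log2 fold change of -0.57 ± 0.20 (SE, edgeR adjusted p = 0.38). By DESeq2, at an adjusted p under 0.05, Pgd, Taldo1 and Pdhb passed as higher and Phka1 and Epm2a as lower. Of all 31870 genes in that fit, 31 passed as higher and 258 as lower.

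In glycogen handling besides the members, 7 of 14 genes were on each side of 0. Epm2a, laforin, which removes phosphate from glycogen, read 19.9, 18.6 and 16.2 CPM in controls and 11.4, 11.2 and 8.97 CPM in knockouts, with a log2 fold change of -0.79 ± 0.16 (SE, edgeR adjusted p = 0.148) and no overlap. The phosphorylase kinase subunit Phkb had a log2 fold change of -0.36 ± 0.13 (SE, edgeR adjusted p = 0.395). Among regulators of uptake and glycolysis, 12 of 19 had positive values. The AMP-activated kinase subunit Prkaa2 had a log2 fold change of -0.61 ± 0.17 (SE, edgeR adjusted p = 0.267). The muscle share was lower in every knockout too, so muscle and genotype cannot be told apart in Epm2a, Phkb and Prkaa2. Of the glucose-sensing factor pair, Mlxip had a log2 fold change of -0.47 ± 0.19 (SE, edgeR adjusted p = 0.447) and its partner Mlx had a log2 fold change of 0.32 ± 0.15 (SE, edgeR adjusted p = 0.497). Of 26 tested other isoforms of the same steps, 9 had positive values. Cytosolic glycerol 3-phosphate dehydrogenase (Gpd1), which makes the glycerol backbone, read 9299, 10663 and 9783 CPM in controls and 11256, 12909 and 13317 CPM in knockouts, above the controls in each knockout, with a log2 fold change of 0.33 ± 0.099 (SE, edgeR adjusted p = 0.296). Bpgm, bisphosphoglycerate mutase, had a log2 fold change of -0.37 ± 0.17 (SE, edgeR adjusted p = 0.516). Of the muscle isoforms, Phka1 had a log2 fold change of -1.21 ± 0.22 (SE, edgeR adjusted p = 0.12), Ppp1r3a had a log2 fold change of -2.92 ± 0.99 (SE, edgeR adjusted p = 0.356) and Phkg1 had a log2 fold change of -1.83 ± 0.75 (SE, edgeR adjusted p = 0.452), and the muscle markers moved with all 3.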

How the data were processed

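Polyadenylated RNA of 6 brown fat samples was sequenced as paired ends after NEBNext Ultra II library preparation, per the labels' protocols. The authors deposited 1 table of estimated counts per gene, which need not be whole and are not normalized, per the values in the file. StringTie, Salmon, edgeR and GRCm38 are named in the submitters' processing notes; for their versions and settings, the annotation release and the use of strand: not given in the sources used here. Columns were matched to samples by the names in the sample descriptions, and 54131 of 54385 identifiers had a symbol in GENCODE vM21.

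Counts were rounded to whole numbers, filtered with filterByExpr (minimum count 10, minimum total count 15), scaled with TMM and tested for genotype with the two-sided quasi-likelihood F test of glmQLFTest after glmQLFit (edgeR 4.0.16, R 4.3.3, no covariate, adjusted p under 0.05 over all 14767 genes). The common biological coefficient of variation was 25.2%. Each SE was obtained as log2 fold change over the square root of F. Total estimated counts were 13956786 to 17538044 per library, and floors cover counting error only. Replicates differed by more than sampling noise. The fit was tested on simulated data. Ratios between isoforms and the summed shares of the pathway and marker lists were compared between groups by exact permutation. The members' shares of counts and the isoform shares per length were not tested.

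Alternatives were DESeq2 1.42.0, limma-voom (limma 3.58.1), RLE factors, no filter, 1 CPM in 3 libraries, adjusted p under 0.1, a replicate block, the muscle share as a covariate and each library left out. After seeing the data, Gapdh summed with Gm7336 and removal of length and GC trends were added. Near-identical entries (identity of at least 97% over at least 300 bases) were found with blastn 2.17.0. Start regions came from RefSeq. Named were every member, Adcy3, summed marker lists, and per pathway list the called genes and up to 3 with the smallest p at a mean of at least 5 CPM (2 of these are not reported here); Pygm, Pgam2, Eno3 and Fbp2 and the markers of the closing section were added to the text with their values known. The members and lists were chosen with earlier results of these data known.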

Additional observations from a re-analysis of the deposited data

How the results depend on the processing

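The absence of calls among members held under RLE factors, the stricter filter, DESeq2, limma-voom, an adjusted p under 0.1, the muscle covariate, the length and GC correction and the sum of Gapdh with Gm7336 (both added after seeing the data). With no filter on low counts, 3 members were called lower (Pfkm, Slc16a3 and the second Aldoa entry), as were 8 other pathway genes and 782 of all 31870 genes (2.45%). The p-values of that fit do not measure the spread of each gene between libraries, as given with Pfkm above. Leaving out 1 library gave 0 to 1 members called higher and 0 to 3 lower, 0 to 1 other pathway genes called higher and 0 to 7 lower, with each upper value from leaving out knockout 1. The number of genes called over the whole table was 857 without knockout 1, 893 with no filter, 289 with DESeq2 and 33 with limma-voom, against 9. DESeq2 called 3 other pathway genes higher and 2 lower, against 31 and 258 of all 31870 genes. The members' median log2 fold change ran from 0.13 to 0.20 with 1 library left out and was 0.39 with the muscle covariate. With the muscle covariate 16 members and 6 other pathway genes changed sign, 0 of them called: Slc2a1 1.03, Hk2 -0.084, Pfkm 0.77, Pfkp -0.39, Aldoa second entry 0.21, Aldoc -1.03, Pfkfb3 -0.44, Pfkfb4 0.28, Tpi1 0.74, Gpd2 -0.52, Slc16a3 1.96, Gyg 0.61, Gys2 -0.057, Pygl -0.24, Ppp1r3b -0.40, Ppp1r3c 0.34, Gpd1 -0.025, Bpgm 0.42, Phka1 0.013, Ppp1r3a 2.09, Phkg1 1.99, Pdp1 0.17. The muscle share did not overlap between the genotypes and was highest among knockouts in knockout 1, which also carried the length and GC trend. Sign changes in that fit cannot be assigned to muscle or to genotype. Other sign changes were of values near 0. They were Slc2a1 at 0.017 after the length and GC correction, and Gyg at 0.00062 by DESeq2 and 0.0032 with no filter. With 1 library left out, the log2 fold change of Slc2a1 ran from -0.33 to 0.25, Aldoc from -0.27 to 0.31, Tpi1 from -0.27 to 0.073, Slc16a1 from -0.019 to 0.22, Gyg from -0.13 to 0.080 and Ppp1r3c from -0.099 to 0.11. The difference between groups ran from -0.50 to 0.021 for the log2 ratio Slc2a1 to Slc2a4, -0.022 to 0.28 for the log2 ratio Hk1 to Hk2 and -0.48 to 0.15 for the log2 ratio Aldoc to Aldoa. The cause was not tested. With the replicate block, 0 members and 0 other pathway genes were called, 4 genes in all against 9, and the members' median was 0.19. Same-numbered libraries correlated at 0.0739, 0.107 and 0.0531 in their deviations, so the numbers were not taken to pair the samples. Depth limits Aldoc most, at under 1 CPM in every library.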

Other observations

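Marker lists of other cell types gave these levels beside the glucose genes, with 0 of their genes called in the edgeR fit of all 6 libraries. All 10 brown adipocyte markers had positive log2 fold changes (median 0.34) and in 5 every knockout was above every control, against 7.63% of all genes. Ucp1, the uncoupling protein that makes heat, read 5398, 6008 and 5849.8 CPM in controls and 7161, 7111 and 7592 CPM in knockouts, and Elovl3, which lengthens fatty acids, read 575, 576 and 521 CPM in controls and 744, 643 and 718 CPM in knockouts. All 8 fibroblast markers had negative values (median -0.71), at 0.0717%, 0.0483% and 0.0693% of counts in controls and 0.0413%, 0.0321% and 0.0266% in knockouts in sum. In 5 of these 8 every knockout was below every control, against 10.8% of all genes. All 8 macrophage markers also had negative values (median -0.44), and 1 of them was lower in every knockout than in every control, against 10.8% of all genes. Of 8 white adipocyte markers, 7 had negative values (median -0.68). In 6 of the 8 every knockout was below every control, against 10.8% of all genes. The summed level of the 8 overlapped between the groups. That sum includes Npr3, the 1 marker with a positive value. Npr3 read 139, 123 and 91.7 CPM in controls and 99.4, 162 and 168 CPM in knockouts. Of the muscle markers, myoglobin (Mb) read 420.5, 349.7 and 341 CPM in controls and 376, 33.4 and 34.5 CPM in knockouts and Myl1 599, 437 and 345 CPM in controls and 268, 39.2 and 27.6 CPM in knockouts; in knockout 3 the skeletal actin Acta1 was at 5.34 CPM. The part of the brown and white adipocyte, fibroblast and macrophage markers in the members' values was not tested.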
